A study of Homo sapiens with 30 samples.

Results

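Cytosolic ribosomal protein genes encode the proteins of the large (RPL) and small (RPS) subunits of the ribosome that translates nuclear messages. They were chosen by name, as symbols of the form RPL or RPS followed by a number, with a level of at least 1 FPKM in 3 or more of the 30 libraries. FPKM is the number of fragments scaled by transcript length and by the mapped total of the library, a level per length. Of 22538 listed names, 35 matched and 32 passed, 20 from the large and 12 from the small subunit. All 32 were at 1 FPKM or more in all 30 libraries, so the filter on low values favoured no exposure among them. The 3 that did not pass were RPL10L, which reached 0.280 FPKM at most, and RPL3L and RPS18, which are listed at 0 in all 30 libraries. RPL5, RPL11, RPLP0, RPLP1, RPLP2, RPSA, RPS6 and RPL3 were not analysed here, so the 32 genes are only part of the family.

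The cells were BEAS-2B, an established human bronchial epithelial line, exposed for 30 min on a rocker, with RNA taken 2 h or 24 h afterwards. The exposures were charcoal burnt with no shisha (charcoal alone), herbal shisha without tobacco on charcoal, tobacco shisha on charcoal, and tobacco shisha on an electric heater, each beside control wells of the same time. There were 3 wells in each of the 10 groups, and every dose was the highest that released no lactate dehydrogenase at 24 h, so doses were not matched by smoke mass. What the control wells received, and whether wells were independent cultures, is not given in the sources used here, so p-values measure the spread between wells, which may be technical.

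A ribosome needs its proteins in equal number, and their genes are expressed together at high levels in growing cells. Most of their mRNAs begin with a C and a run of pyrimidines, the 5′ terminal oligopyrimidine (TOP) motif, through which the mTORC1 kinase and the RNA-binding protein LARP1 control how they are translated and kept. New ribosomes also need RNA polymerase I, which makes ribosomal RNA, and a large set of assembly factors in the nucleolus. A few ribosomal proteins have close paralogs. RPL22L1 is the paralog of RPL22, and RPS27L that of RPS27.

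The start of each gene showed the TOP motif in most members. RefSeq promoter windows of build GRCh38.p14, each with 250 bases before and 50 from the annotated start, were matched by symbol for 27 of the 32 genes, with 37 starts between them. A TOP start was counted where the first base was C and at least 4 further C or T bases followed. It was found at 21 of the 37 starts (56.8%) and in 21 of the 27 genes, against 4.07% of all 35116 starts in the RefSeq table and 5.22% of the 9175 starts of the genes tested. Ribosome biogenesis factors had it at 4 of 32 starts (12.5%) and mitochondrial ribosomal proteins at 5 of 57 (8.77%). The sequences below run 5′ to 3′ from 30 bases before the start to 20 bases from it, and capitals mark the pyrimidine run from the start. They are shown for a hand-picked set of members that have a TOP start, among them RPL22 and its paralog, and for RPS27L and RPS29, whose starts have none.

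RPL38, chr17:74203648-74203697, plus strand: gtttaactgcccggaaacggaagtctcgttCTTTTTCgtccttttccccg
RPL21, chr13:27251528-27251577, plus strand: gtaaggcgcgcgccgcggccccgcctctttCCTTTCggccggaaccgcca
RPL37A, chr2:216498814-216498863, plus strand: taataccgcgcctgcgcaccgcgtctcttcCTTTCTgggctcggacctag
RPS14, chr5:150449720-150449769, minus strand: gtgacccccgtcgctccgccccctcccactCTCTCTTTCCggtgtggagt
RPL18, chr19:48619159-48619208, minus strand: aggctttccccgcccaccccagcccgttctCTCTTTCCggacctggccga
RPS23, chr5:82278335-82278384, minus strand: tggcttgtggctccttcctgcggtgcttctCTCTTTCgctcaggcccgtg
RPL22, chr1:6199576-6199625, minus strand: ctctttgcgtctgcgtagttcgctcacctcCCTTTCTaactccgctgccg
RPL22L1, chr3:170870176-170870225, minus strand: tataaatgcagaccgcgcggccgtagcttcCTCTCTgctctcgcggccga
RPS27L, chr15:63157458-63157507, minus strand: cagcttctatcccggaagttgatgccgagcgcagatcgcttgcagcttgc
RPS29, chr14:49598691-49598740, minus strand: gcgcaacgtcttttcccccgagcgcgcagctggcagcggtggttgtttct

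The pyrimidine runs of the shown genes with a TOP start were between 6 and 10 bases long. RPL22L1 carried the motif like its parent RPL22. Longer runs were among the genes not shown, such as 16 bases for RPL7A and 12 for RPL26. The 6 matched genes with no TOP start by this rule were RPL6, RPL9, RPL15, RPL32, RPS29 and RPS27L, whose annotated starts open with a base other than C. Searched on both strands of the same windows, CCGGAAG, a core of ETS-family sites, was in 12 of 37 member starts (32.4%), against 10.3% of all starts and 16.8% of the starts of tested genes. AAGATGG, a core of YY1 sites, was in 5 (13.5%), against 5.84% and 7.19%. TATAAA was in 2 (5.41%), against 11.5% and 5.96%. A match is a description of these letters only.

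The genes differed widely in level and in how closely wells agreed. RPL37A was the highest with a mean of 1247 FPKM over the 30 libraries, and RPL30, RPL35A, RPS14 and RPL13A followed at 809.8, 787, 764 and 752 FPKM. RPS9 was the lowest at 9.32 FPKM, next to RPL22L1 at 12.3 FPKM and RPL9 at 24.7 FPKM. Together the 32 genes held between 4.51% and 5.43% of all FPKM in a library. Within groups, the SD of log2(FPKM + 1) was under 0.1 for 18 members and over 0.2 for 7, with a median of 0.0924, against 0.0721 for the 1549 tested genes with a mean of at least 30 FPKM. The steadiest were RPL21 (SD 0.0435), RPL38 (0.0448) and RPL37A (0.0471).

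**Figure D1:**
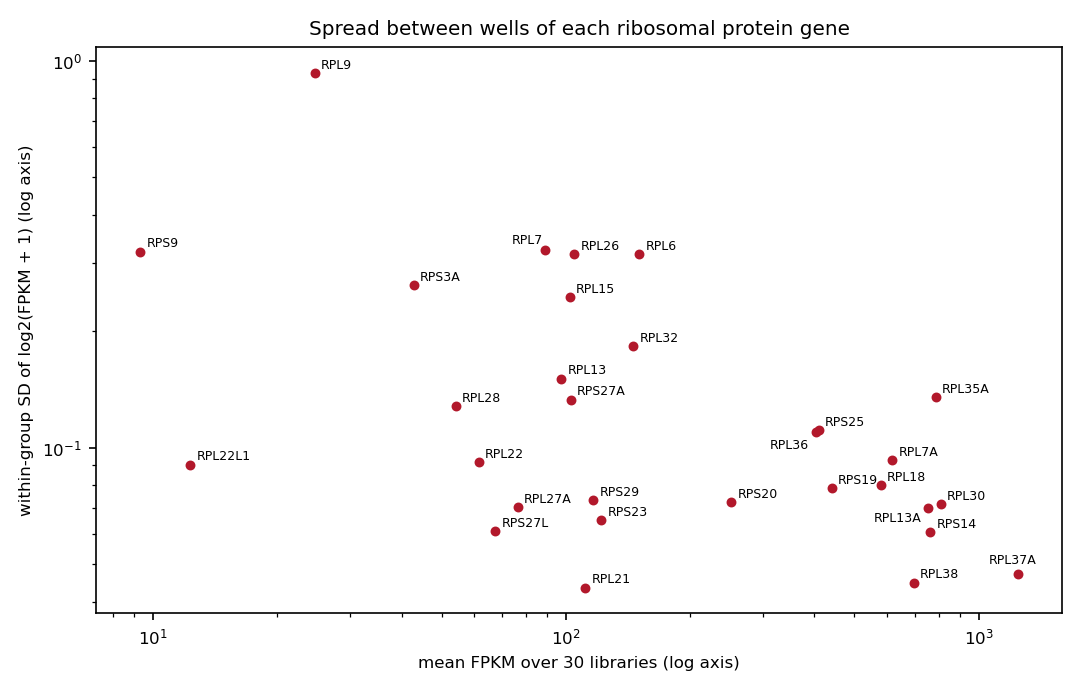
Mean level of 30 ribosomal protein genes (x axis, FPKM, log axis) against its within-group SD of log2(FPKM + 1) over 3 wells per group (y axis, log axis), one point per gene. RPL9 stands alone at an SD of 0.93, RPL21, RPL38 and RPL37A are lowest, and RPL22L1 and RPS9 have the lowest levels beside very different spreads.

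The 7 genes of wide spread were RPL9, RPL7, RPS9, RPL26, RPL6, RPS3A and RPL15. Each deposited value belongs to 1 RefSeq transcript of a gene that can have several, 23 for RPS9 and 11 for RPL6, and ribosomal protein genes have many near-identical pseudogene copies, so reads may have been split between transcripts or copies. RPL9 had the widest spread. It was at 50.9, 59.3 and 56.3 FPKM after tobacco shisha on the electric heater at 24 h, against 11.5, 30.3 and 29.9 FPKM in 24 h controls, and at 10.2, 3.55 and 3.28 FPKM after charcoal alone at 2 h, against 10.04, 44.2 and 10.8 FPKM in 2 h controls. At 24 h the groups did not overlap, yet no change of RPL9 passed the test, and single groups such as herbal shisha on charcoal at 2 h held wells of 12.2, 46.9 and 3.44 FPKM.

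Single libraries stood apart from their groups for some members. In well 3 of tobacco shisha on charcoal at 2 h, RPL36 was at 305 FPKM and RPL13A at 613 FPKM, while the other two wells of the group had 433 and 438 FPKM of RPL36 and 766 and 753 FPKM of RPL13A. Counts of calls that use this group are given with and without that well. Well 3 of the electric heater at 2 h had the highest FPKM sum of the series (220259, against 212878 and 210475 in its group). RPS14 was at 880.5 FPKM in it, against 736 and 775 FPKM in the other wells of the group. Without that well 3 members were called against control, where 7 were called with it. The keratins KRT8, KRT18 and KRT19 were at 1 FPKM or more in all 30 libraries, whereas the epithelial markers EPCAM, CDH1 and KRT5 reached it in none. Of 11 immune markers 2 and of 9 endothelial markers 1 were tested, and 5 of the immune markers were at 0 throughout. As these are bulk samples, fewer cells of a kind and less RNA per cell cannot be told apart.

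After charcoal alone most of the 32 ribosomal protein genes had lower means than in control wells. At 2 h, 31 of the 32 had a lower mean, as did 6032 of all 8531 genes. All 3 wells were below all 3 control wells in 20 members (62.5%), against 38.1% of all genes. The test called 4 members lower and 0 higher, 12.5% lower against a background of 16.2% lower and 8.16% higher. The member median was -0.11 on the log2 scale, against -0.08 over all genes, and with libraries scaled by median of ratios it was -0.03 with 0 higher and 2 lower. At 24 h, 28 of 32 members were below control, against 3664 of all 8531 genes. Non-overlapping lower wells were found in 14 members (43.8%), against 13.4% of all genes. The test called 3 members lower and 0 higher, against backgrounds of 3.82% and 6.05%. Here the member median was -0.13 where that of all genes was 0.02, and scaling gave -0.15 with 0 higher and 6 lower.

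RPL26, a large-subunit protein, had 89.4, 37.0 and 56.5 FPKM after charcoal alone at 2 h, against 115, 124 and 118 FPKM in controls. All 3 exposed wells were lower, and they were far apart from each other. It fell by 1.04 on the log2 scale (SE 0.24, adjusted p = 0.00267). RPL22 had 48.5, 48.6 and 56.8 FPKM after charcoal alone at 2 h, against 61.6, 68.1 and 59.0 FPKM in controls. All exposed wells were below all control wells, and it fell by 0.29 (SE 0.07, adjusted p = 0.00477). RPS9, a small-subunit protein, had 5.50, 5.70 and 7.81 FPKM, against 10.98, 10.8 and 11.9 FPKM in controls, and fell by 0.75 (SE 0.25, adjusted p = 0.029). Its wells across the whole series lay between 5.50 and 14.0045 FPKM, and those of 24 h controls were at 12.03, 6.32 and 12.01 FPKM.

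RPL21 was among the steadiest members. Another listed row of the same RPL21 transcript, with a mean of 39.0 FPKM (26.9 to 51.3 FPKM over the 30 libraries), was not tested. The RPL21 row that was kept had 99.7, 102 and 100.3 FPKM after charcoal alone at 2 h, against 109, 109 and 108 FPKM in controls. It fell by 0.11 (SE 0.04, adjusted p = 0.0434). At 24 h it had 98.5, 99.0 and 102 FPKM after charcoal alone, against 114, 109.5 and 113 FPKM in controls, and fell by 0.17 (SE 0.04, adjusted p = 0.00659). Both times gave wells that did not overlap with the controls. RPL38, known in mice for its part in translating Hox mRNAs, had 609.7, 639 and 612 FPKM after charcoal alone at 24 h, against 684, 684 and 677 FPKM in controls. It fell by 0.14 (SE 0.04, adjusted p = 0.0219), with every exposed well lower. RPL36 had 349, 382 and 355 FPKM, against 432, 438 and 452 FPKM in controls, and fell by 0.28 (SE 0.09, adjusted p = 0.0375).

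Leaving out any 1 of the 6 wells ended the call of RPL21 at 2 h (adjusted p 0.068 to 0.116). RPS9 at 2 h kept its call only without well 3 of charcoal alone (otherwise 0.0591 to 0.103), and RPL36 at 24 h only without well 2 of charcoal alone (otherwise 0.0742 to 0.12). RPL38 at 24 h lost its call without control well 1 or 2 or without charcoal well 1 or 3 (0.0653 to 0.0861). The calls of RPL26 and RPL22 at 2 h and of RPL21 at 24 h were kept in every such fit. With median-of-ratios scaling 0 small-subunit members were called lower at 2 h, so the RPS9 call was lost there too.

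**Figure D2:**
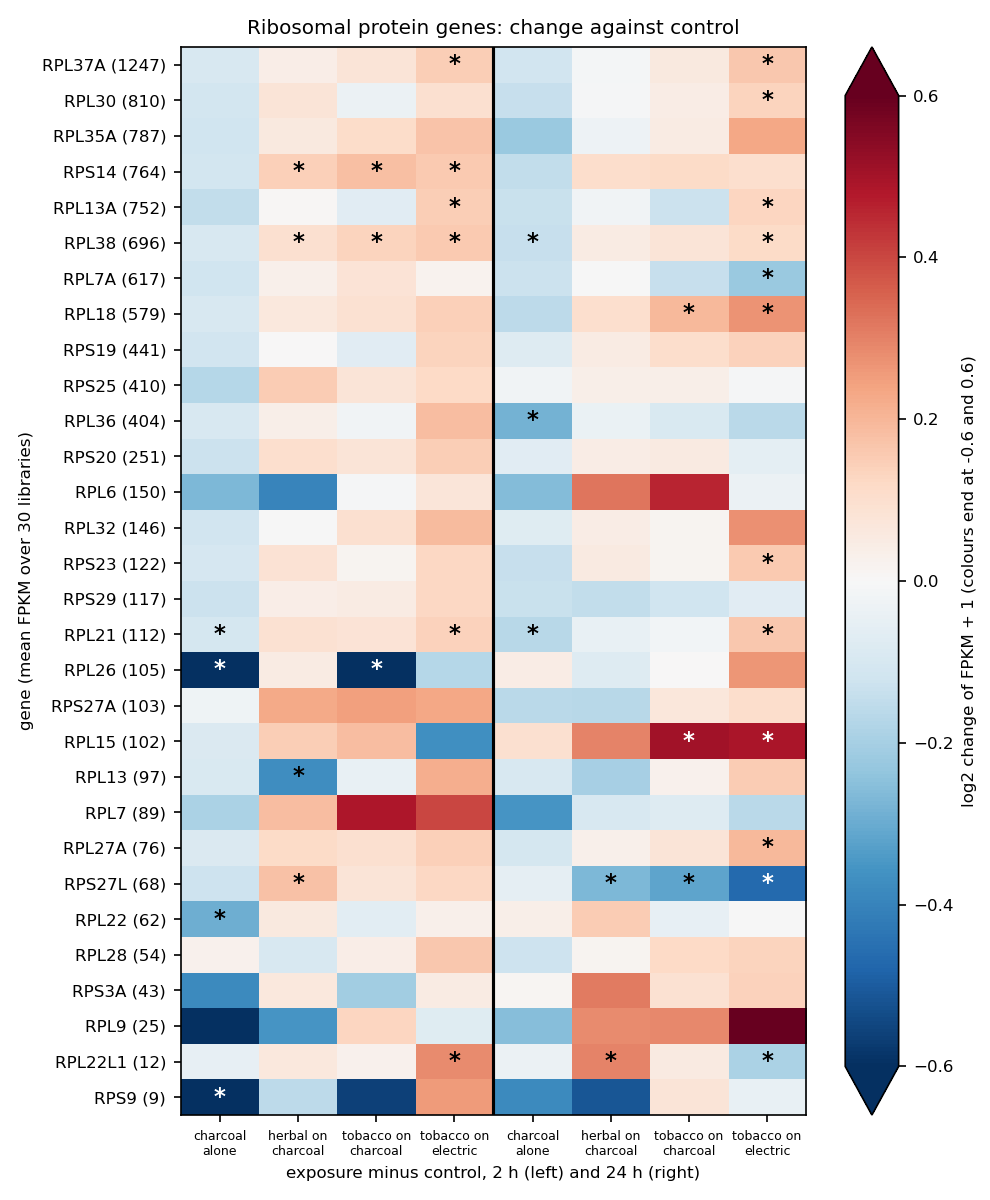
Log2 change of FPKM + 1 of 30 ribosomal protein genes (rows, ordered by mean FPKM) in each exposure minus its control (columns, 2 h left of the line and 24 h right of it), with red for higher and blue for lower. Stars mark an adjusted p below 0.05. The charcoal alone columns are blue in nearly every row, 29 of 30 at 2 h, and the electric heater column is red in 27 of 30 at 2 h.

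At 2 h most members were slightly higher after the shisha exposures, above control in 26 of 32 for herbal shisha, 21 for tobacco shisha on charcoal and 29 for the electric heater. Of all 8531 genes, 3092, 2890 and 3642 were above control in the same order. Herbal shisha on charcoal raised 4 members and lowered 1 (backgrounds 10.6% higher and 27.7% lower), tobacco shisha on charcoal raised 3 and lowered 1 (8.50% and 26.7%), and tobacco shisha on the electric heater raised 7 and lowered 0 (9.27% and 24.8%). The member median was 0.06 for herbal shisha (all genes -0.07), 0.08 for tobacco shisha on charcoal (all genes -0.08) and 0.14 for the electric heater (all genes -0.04). Scaling by median of ratios gave 13 higher and 0 lower after herbal shisha (median 0.15). With the same scaling, tobacco shisha on charcoal had 12 higher and 1 lower (median 0.18) and the electric heater 18 higher and 0 lower (median 0.21). All exposed wells exceeded all control wells in 13 members (40.6%) after herbal shisha, against 18.6% of all genes. The same held for 7 (21.9%) after tobacco shisha on charcoal, against 14.9%, and for 18 (56.2%) after the electric heater, against 16.2%. Without well 3 of tobacco shisha on charcoal, 11 members were called higher and 1 lower in that comparison. For the electric heater 12 members were called without its well 2 and 3 without its well 3, and for herbal shisha the count was 2 to 4 when any 1 well was left out.

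RPS14, a small-subunit protein whose loss on one chromosome copy causes the anaemia of 5q- syndrome, had 789.6, 782 and 785 FPKM after herbal shisha on charcoal, 775, 793 and 852 FPKM after tobacco shisha on charcoal and 736, 775 and 880.5 FPKM after the electric heater, against 725, 714 and 697 FPKM in the shared 2 h controls. Every exposed well was above every control well. It rose by 0.14 on the log2 scale after herbal shisha (SE 0.05, adjusted p = 0.0241), by 0.18 after tobacco shisha on charcoal (adjusted p = 0.00579) and by 0.16 after the electric heater (adjusted p = 0.0141).

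RPL38 had 737, 694 and 720.1 FPKM after herbal shisha, 721, 728 and 756 FPKM after tobacco shisha on charcoal and 722, 729 and 791 FPKM after the electric heater, against 674, 679 and 658 FPKM in controls. All 9 exposed wells lay above the 3 control wells, and the rise was 0.10 after herbal shisha (SE 0.04, adjusted p = 0.045), 0.13 after tobacco shisha on charcoal (adjusted p = 0.00746) and 0.16 after the electric heater (adjusted p = 0.00229). RPL37A, the most abundant member, had 1294, 1362 and 1401 FPKM after the electric heater, against 1217, 1245 and 1193 FPKM in controls, and rose by 0.15 (SE 0.04, adjusted p = 0.00409). RPL21 rose after the electric heater by 0.14 (113, 119 and 126 FPKM, against 109, 109 and 108 FPKM in controls, adjusted p = 0.00751). RPL13A, also known for silencing translation in interferon-treated monocytes, rose by 0.15 (807, 791 and 864 FPKM, against 750.0, 752 and 721 FPKM, adjusted p = 0.0446).

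Some members moved the other way at 2 h. RPL13 had 75.5, 76.9 and 72.9 FPKM after herbal shisha on charcoal, against 96.1, 101 and 95.8 FPKM in controls, and fell by 0.37 (SE 0.12, adjusted p = 0.0141). Its wells were tight within both groups. With median-of-ratios scaling 0 members were called lower after herbal shisha, so the RPL13 call was lost. RPL26 had 108, 43.6 and 53.5 FPKM after tobacco shisha on charcoal, against the 115, 124 and 118 FPKM of controls, and fell by 0.90 (SE 0.24, adjusted p = 0.00568). One exposed well lay close to the controls and the call was lost without well 2 (adjusted p = 0.0568, change -0.63). RPS27A, which is made as a fusion with ubiquitin, was on the higher side like most members. It had 112, 107 and 110.3 FPKM after herbal shisha, against 93.7, 97.4 and 90.4 FPKM in controls, but did not pass the test in any comparison with control.

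Several of these small rises depended on single wells. After herbal shisha, RPL38 lost its call without any 1 well except herbal well 2 (adjusted p 0.0627 to 0.173), and RPS14 without control well 2 or 3 or herbal well 1 or 3 (0.0524 to 0.0848). RPL38 also lost this call when the fit held a term for the replicate number (a replicate block), which gave fewer calls for herbal shisha. After the electric heater, RPS14 lost its call without heater well 3 or control well 3 (0.155 and 0.0568), with the rise at 0.08 in the fit without heater well 3.

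At 24 h the electric heater gave 13 called members. Herbal shisha on charcoal raised 1 member and lowered 1 (backgrounds 16.5% higher and 10.4% lower), tobacco shisha on charcoal raised 3 and lowered 1 (25.9% and 18.6%), and the electric heater raised 10 and lowered 3 (34.3% and 29.5%). Thus 31.2% of the members were higher after the electric heater, near the background. The member median was 0.03 for herbal shisha (all genes 0.03), 0.05 for tobacco shisha on charcoal (all genes 0.04) and 0.13 for the electric heater (all genes 0.03). Under median-of-ratios scaling the split was 1 higher and 2 lower with a median of -0.01 for herbal shisha, whose direction turned, 1 and 4 with 0.01 for tobacco shisha on charcoal, and 7 and 4 with 0.10 for the electric heater. After the electric heater, 19 members (59.4%) had all wells above all control wells, against 36.5% of all genes.

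RPL18, a large-subunit protein, had 677, 682 and 686 FPKM after the electric heater at 24 h and 638, 655 and 649 FPKM after tobacco shisha on charcoal, against 559, 554 and 584 FPKM in the shared 24 h controls. The 3 groups did not overlap. It rose by 0.27 after the electric heater (SE 0.06, adjusted p = 0.000716) and by 0.20 after tobacco shisha on charcoal (adjusted p = 0.0147, and 0.0529 without control well 2). With median-of-ratios scaling 0 large-subunit members were called higher after tobacco shisha on charcoal, so that RPL18 call was lost.

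RPL27A had 81.9, 85.8 and 91.1 FPKM after the electric heater at 24 h, against 74.2, 76.1 and 75.3 FPKM in controls, and rose by 0.19 (SE 0.06, adjusted p = 0.00483). RPL37A had 1361, 1360 and 1387 FPKM, against 1206, 1236 and 1235 FPKM, and rose by 0.16 (adjusted p = 0.000973). RPL21 had 125, 127 and 125 FPKM, against 114, 109.5 and 113 FPKM, and rose by 0.16 (adjusted p = 0.000832). In each the heater wells lay above all control wells. RPS23, a protein of the decoding centre, also rose after the electric heater, by 0.16 (adjusted p = 0.0126), as did RPL30 by 0.13 (adjusted p = 0.042), RPL38 by 0.12 (adjusted p = 0.00992) and RPL13A by 0.13 (adjusted p = 0.0462). Of the 20 large-subunit members, 8 were called higher after the electric heater, and 5 with median-of-ratios scaling. RPL7A was one that fell. It had 541, 531 and 547 FPKM after the electric heater, against 646, 584 and 661 FPKM in controls, and fell by 0.22 (SE 0.07, adjusted p = 0.0109, and 0.0535 without control well 3).

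RPL15 had the largest called rise against control at 24 h, with uneven control wells. It had 117, 119 and 113 FPKM after the electric heater and 116, 122 and 114 FPKM after tobacco shisha on charcoal, against 59.1, 109 and 87.3 FPKM in controls. The exposed wells were tight and the control wells were spread widely. It rose by 0.49 after the electric heater (SE 0.19, adjusted p = 0.0266) and by 0.50 after tobacco shisha on charcoal (adjusted p = 0.0329). Without control well 1 the change was 0.25 after the electric heater (adjusted p = 0.243) and 0.27 after tobacco shisha on charcoal (adjusted p = 0.265). The heater call was also lost without heater well 1 or 2 (lowest adjusted p 0.0585), and the other without any 1 of the 3 wells of tobacco shisha on charcoal (lowest 0.053). The RPL15 call after tobacco shisha on charcoal was lost with median-of-ratios scaling too. Charcoal alone at 24 h held 103, 65.9 and 102 FPKM of RPL15, and herbal shisha 114, 75.8 and 122 FPKM, so single low wells occurred in several groups.

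RPS27L, the paralog of RPS27, had the smallest p of the members after each shisha exposure at 24 h. It had 49.7, 50.7 and 50.8 FPKM after tobacco shisha on the electric heater, 52.2, 61.3 and 55.2 FPKM after tobacco shisha on charcoal, 56.5, 61.4 and 56.3 FPKM after herbal shisha on charcoal and 65.9, 68.9 and 67.7 FPKM after charcoal alone, against 72.7, 72.5 and 65.4 FPKM in controls. Every well of the 3 shisha groups was below every control well, and charcoal alone overlapped with the controls. It fell by 0.47 after the electric heater (SE 0.05, adjusted p = 3.29e-08), by 0.32 after tobacco shisha on charcoal (adjusted p = 2.78e-05) and by 0.27 after herbal shisha (adjusted p = 0.000504). The difference after charcoal alone was -0.05 (adjusted p = 0.593). These comparisons share their control wells, and all 3 calls were kept whichever well was left out.

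At 2 h RPS27L lay above control in all 3 shisha groups. It had 81.6, 79.5 and 82.6 FPKM after herbal shisha on charcoal, against 72.4, 72.0 and 71.0 FPKM in controls, and rose by 0.18 (SE 0.05, adjusted p = 0.00815). Tobacco shisha on charcoal gave 75.8, 73.1 and 78.5 FPKM and the electric heater 73.6, 79.5 and 82.0 FPKM, all above the controls, but these did not pass the test (adjusted p = 0.257 for tobacco shisha on charcoal and 0.0648 for the electric heater). Charcoal alone gave 65.1, 65.0 and 66.9 FPKM, all below the controls, which did not pass either (adjusted p = 0.0715). The change of effect between times was itself tested. The effect at 24 h minus that at 2 h was -0.59 for the electric heater (SE 0.07, adjusted p = 4.22e-07), -0.39 for tobacco shisha on charcoal (adjusted p = 0.000171) and -0.44 for herbal shisha (adjusted p = 6.1e-05). Control wells themselves had a mean of 70.2 ± 4.15 FPKM at 24 h and 71.8 ± 0.737 FPKM at 2 h (SD, n = 3 each).

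RPL22L1, the other paralog that passed the filter, was higher after the electric heater at 2 h and lower at 24 h. At 2 h it had 15.5, 14.1 and 15.8 FPKM after the electric heater, against 11.6, 12.6 and 12.5 FPKM in controls, without overlap. It rose by 0.28 (SE 0.07, adjusted p = 0.00389). At 24 h it had 9.69, 10.5 and 9.49 FPKM after the electric heater, against 11.4, 10.2 and 12.8 FPKM in controls, which overlapped, and fell by 0.19 (adjusted p = 0.0283). That fall lost its call without control well 1 or 3 or heater well 1 or 3 (0.0544 to 0.211). The change of the heater effect between times was -0.47 (SE 0.10, adjusted p = 0.000463). Herbal shisha at 24 h gave 12.6, 14.7 and 15.6 FPKM against the same controls, a rise of 0.30 (adjusted p = 0.00425) with overlapping wells.

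**Figure D3:**
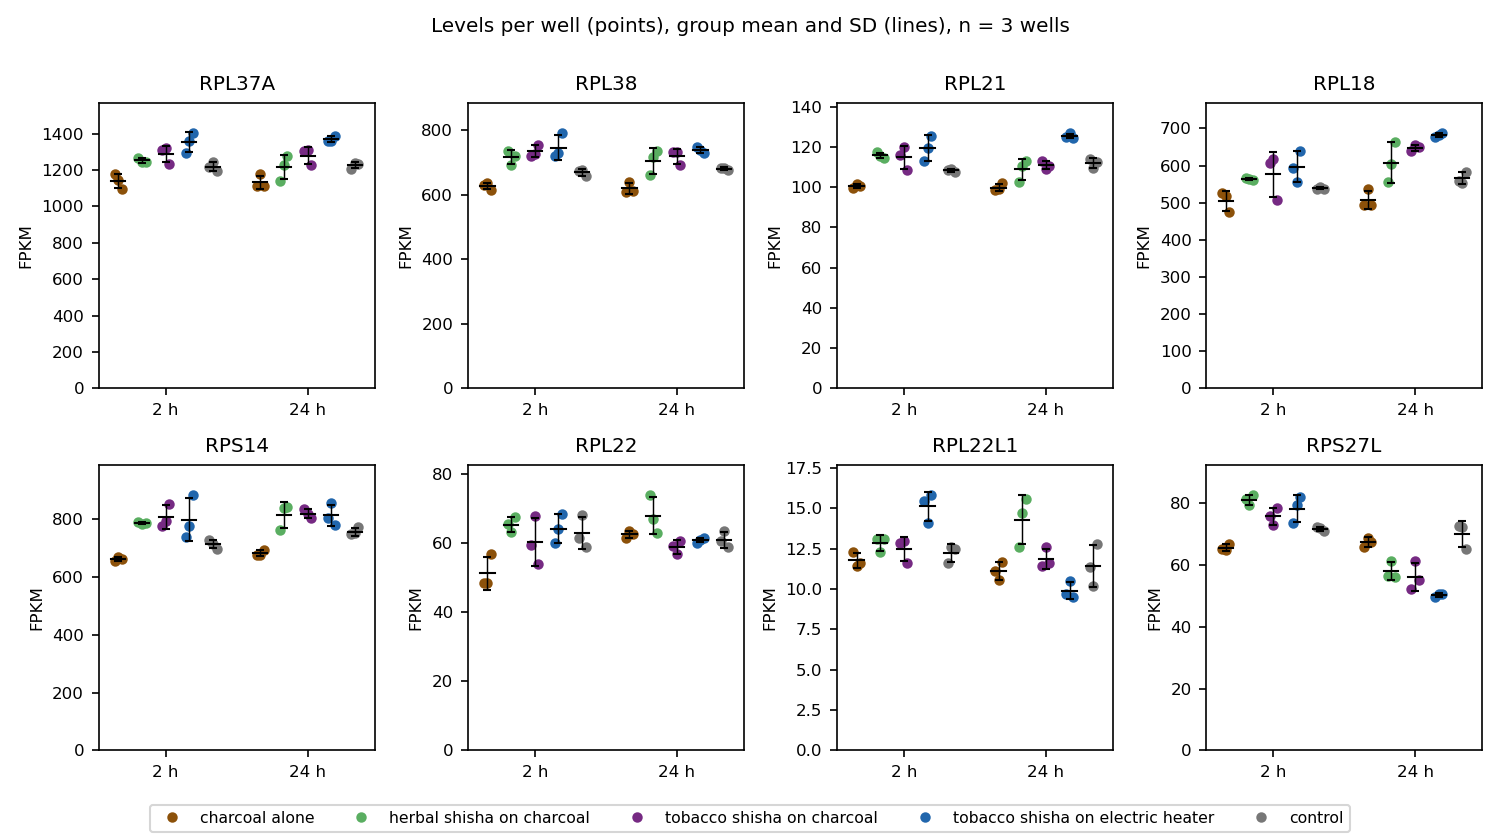
FPKM of 8 ribosomal protein genes in each well (points) with group mean and SD (lines, n = 3 wells), for the 4 exposures and then control at 2 h and at 24 h, with the y axis from 0. RPS27L lies above its controls in the shisha groups at 2 h and below them at 24 h, where the electric heater wells sit between 49.7 and 50.8 FPKM, and RPL21 and RPL38 are lowest after charcoal alone.

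RPL22, the parent of RPL22L1, had 60.2, 60.96 and 61.5 FPKM after the electric heater at 24 h, against 60.6, 63.5 and 58.8 FPKM in controls. The ranges overlapped entirely, and of the 8 comparisons with control RPL22 was called in 1, charcoal alone at 2 h. For charcoal alone the effect on RPL22 at 24 h minus that at 2 h was 0.33 (SE 0.10, adjusted p = 0.0241). RPL26, whose paralog was not analysed here, had 127, 132 and 136 FPKM after the electric heater at 24 h, against 118, 109 and 103 FPKM in controls, all higher but not past the test. RPL7, another parent gene, ranged from 45.2 to 122 FPKM over the libraries and was called in no comparison.

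Electric heating of tobacco shisha was set against charcoal heating of tobacco shisha. Doses were not matched by smoke mass, so heat source and dose cannot be told apart in this comparison. At 24 h the electric heater had 4 members higher and 2 lower than charcoal (backgrounds 22.9% higher and 24.9% lower). RPL13A had 855, 838 and 873 FPKM with the electric heater, against 718, 719 and 706 FPKM with charcoal, and was higher by 0.26 (SE 0.06, adjusted p = 0.000532). RPL21 had 125, 127 and 125 FPKM with the heater, against 113, 109 and 111 FPKM with charcoal, and was higher by 0.17 (adjusted p = 0.000659). Neither gene's wells overlapped and both calls were kept whichever well was left out. RPS23 was higher by 0.14 (134, 132 and 136 FPKM with the heater, against 125, 123 and 117 FPKM with charcoal, adjusted p = 0.0337), and lost its call in 4 of 6 fits without 1 well, those without charcoal well 2 or 3 or heater well 1 or 3 (0.0549 to 0.146).

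Lower with the electric heater at 24 h were both paralogs. RPL22L1 was lower by 0.24 on the log2 scale (change -0.24, SE 0.07, adjusted p = 0.00898, and 0.0534 without charcoal well 2). RPS27L was lower by 0.15 (change -0.15, SE 0.05, adjusted p = 0.0159), a call lost without charcoal well 2 or heater well 1 (0.154 and 0.0527). At 2 h the electric heater had 5 members higher and 1 lower than charcoal (backgrounds 12.7% and 10.6%), RPS9, RPL26, RPL22L1, RPL13A and RPS19 among the higher and RPL15 the lower. Without well 3 of tobacco shisha on charcoal 0 members were called by limma, and the count was 0 to 7 over the wells left out.

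Tobacco against herbal shisha on charcoal gave 0 called members by limma at either time (also 0 at 2 h without well 3 of tobacco shisha), with 2 members at an unadjusted p below 0.05 at 2 h and 4 at 24 h. Background shares were 0.305% higher and 0.305% lower at 2 h, and 2.41% and 2.71% at 24 h. The 95% interval of the difference lay within 0.5 on the log2 scale on both sides for 25 of 32 members at each time. Control wells at 24 h against 2 h likewise gave 0 called members by limma, with 0 at an unadjusted p below 0.05 (backgrounds 7.44% higher and 9.44% lower), and the interval was within 0.5 for 26 members.

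The change of an exposure's effect between the times passed the test in 6 members or fewer for each exposure. The effect of charcoal alone at 24 h was higher than at 2 h in 2 members and lower in 0 (backgrounds 16.2% higher and 7.00% lower). Herbal shisha had 0 higher and 2 lower (24.0% and 8.30%), tobacco shisha on charcoal 1 and 1 (30.3% and 10.8%), and the electric heater 1 and 5 (34.8% and 22.8%). Charcoal alone had a member median of -0.01 (all genes 0.09), herbal shisha -0.04 (0.12), tobacco shisha on charcoal -0.01 (0.13) and the electric heater -0.02 (0.09). With scaling 0 were higher and 1 lower for charcoal alone. Herbal shisha gave 0 and 8, tobacco shisha on charcoal 0 and 8, and the electric heater 1 and 8. Without well 3 of tobacco shisha on charcoal at 2 h its split was 0 and 5. Besides RPS27L and RPL22L1, the electric heater effect was lower at 24 h for RPL36 (-0.35, adjusted p = 0.0182), RPL7A (-0.24, adjusted p = 0.0496) and RPS20 (-0.21, adjusted p = 0.0337), and higher for RPL15 (0.86, adjusted p = 0.00833).

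Genes of ribosome assembly were read beside the ribosomal proteins at 24 h. Of 34 ribosome biogenesis factors tested, 33 rose (97.1%) and 0 fell after the electric heater, where 34.3% of all genes were higher and 29.5% lower. After tobacco shisha on charcoal 22 rose (64.7%) and 1 fell, against 25.9% and 18.6% of all genes, and after herbal shisha 14 rose (41.2%) and 0 fell, against 16.5% and 10.4%. Charcoal alone gave 0 higher and 1 lower, against 6.05% and 3.82%. Their median was 0.63 after the electric heater, 0.27 after tobacco shisha on charcoal, 0.16 after herbal shisha and -0.02 after charcoal alone, beside ribosomal protein medians of 0.13 after the electric heater, 0.05 after tobacco shisha on charcoal, 0.03 after herbal shisha and -0.13 after charcoal alone. No test of the difference between lists was made. NOP2, a methyltransferase of large-subunit ribosomal RNA, averaged 33.0 ± 2.06 FPKM after the electric heater and 14.1 ± 0.532 FPKM in controls (SD, n = 3 each), a rise of 1.16 (SE 0.06, adjusted p = 8.01e-13). GRWD1, a ribosome assembly chaperone, averaged 53.2 ± 4.64 FPKM and 22.9 ± 0.704 FPKM in the same groups and rose by 1.18 (adjusted p = 1.13e-11). The one factor that did not pass the test after the electric heater had the lowest change, 0.04.

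RNA polymerase I subunits and regulators rose in 7 of 10 (70.0%) after the electric heater at 24 h (median 0.31), with 0 lower, against 34.3% of all genes higher and 29.5% lower. POLR1E averaged 20.1 ± 0.754 FPKM and 12.2 ± 0.217 FPKM in controls, a rise of 0.67 (adjusted p = 1.15e-08). Mitochondrial ribosomal proteins, which serve the separate ribosome of mitochondria, rose in 34 (60.7%) and fell in 8 (14.3%) of 56 after the electric heater. They rose in 42 (75%) and fell in 0 after tobacco shisha on charcoal, against 25.9% and 18.6% of all genes, and rose in 33 (58.9%) and fell in 0 after herbal shisha, against 16.5% and 10.4%. MRPL47 averaged 84.2 ± 1.57 FPKM after the electric heater and 51.8 ± 3.41 FPKM in controls, a rise of 0.69 (adjusted p = 1.55e-10). Other TOP mRNAs, for translation factors and a few more proteins, had 3 of 12 higher (25%) and 0 lower after the electric heater at 24 h (median 0.00), a share of higher genes below the 34.3% of all genes, among them EIF3H at 85.5 ± 2.35 FPKM, against 74.4 ± 1.01 FPKM in controls (rise 0.20, adjusted p = 6.3e-05).

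**Figure D4:**
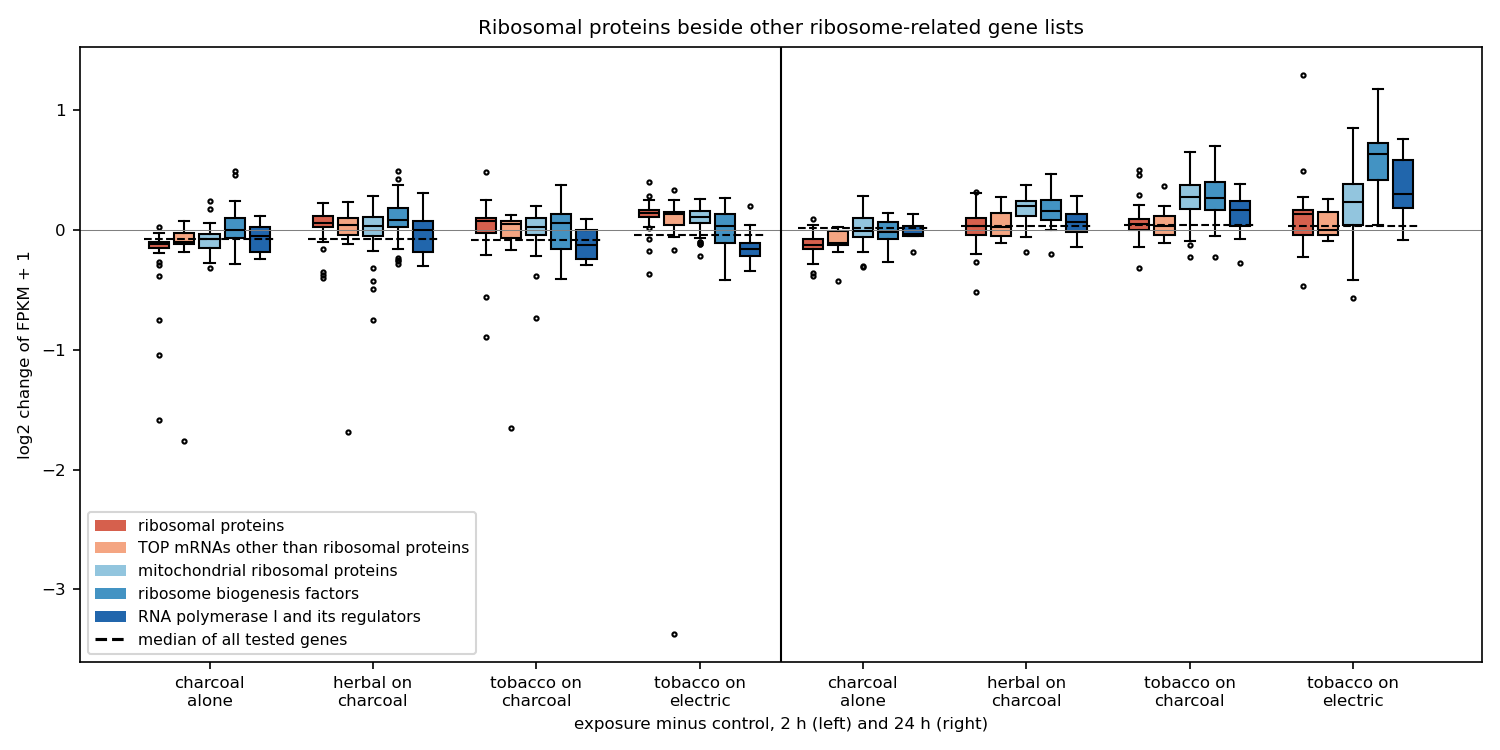
Log2 change of FPKM + 1 against control for 5 gene lists (boxes show quartiles and median, whiskers reach 1.5 times the quartile range, circles are genes beyond) in the 4 exposures at 2 h (left of the line) and 24 h (right). Dashed lines are medians of all 8531 tested genes. At 24 h after the electric heater the biogenesis factors have a median of 0.63 and the ribosomal proteins 0.13. The circle at -3.37 after the electric heater at 2 h is EEF1D, whose change did not pass the test (adjusted p = 0.24).

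At 2 h biogenesis factors split after the electric heater, with 6 higher (17.6%) and 5 lower (14.7%) of 34 (median 0.04), against 9.27% of all genes higher and 24.8% lower, among them WDR75 at 11.9 ± 0.351 FPKM, against 15.7 ± 0.38 FPKM in controls (fall of 0.38, adjusted p = 5.31e-06). In the same comparison the ribosomal proteins had their median of 0.14, the other TOP mRNAs 0.14 with 4 of 12 higher (33.3%) and 1 lower (8.33%), and mitochondrial ribosomal proteins 0.11 with 14 of 56 higher (25%) and 1 lower (1.79%). Of 16 tested genes of mTORC1 and TOP mRNA control, LARP1 and EIF4EBP2 had the smallest p after the electric heater at 2 h. LARP1 was at 37.6 ± 4.05 FPKM, against 48.8 ± 1.51 FPKM in controls, a fall of 0.37 (adjusted p = 8.65e-05). EIF4EBP2 was at 12.5 ± 0.582 FPKM, against 18.8 ± 0.607 FPKM, a fall of 0.55 (adjusted p = 1.45e-09). Being picked by p, these 2 do not describe the list, and 24.8% of all genes were lower in this comparison. At 24 h that list had 6 of 16 higher (37.5%) and 5 lower (31.2%) after the electric heater, near the 34.3% and 29.5% of all genes.

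A gene of growth arrest was read beside RPS27L. CDKN1A, an inhibitor that stops the cell cycle, averaged 69.8 ± 6.08 FPKM after the electric heater at 24 h and 43.8 ± 3.34 FPKM in controls, a rise of 0.66 (adjusted p = 1.46e-06). After tobacco shisha on charcoal it averaged 34.0 ± 2.47 FPKM, a fall of 0.36 against the same controls (adjusted p = 0.00313). RPS27L was lower in both comparisons, where CDKN1A was higher after the electric heater and lower after tobacco shisha on charcoal. CDKN1A came from a list of 4 genes on ribosomal proteins and p53, of which 3 were tested, and does not describe that list. The summed level of the 4 at 24 h was 189 to 203 FPKM after the electric heater. It was 181 to 208 FPKM after tobacco shisha on charcoal and 216 to 236 FPKM in controls. The summed level of 11 fibroblast markers, of which 5 were tested, was 148 to 168 FPKM after the electric heater at 24 h and 310.4 to 331 FPKM in controls. The part of this difference in the ribosomal results was not tested.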

How the data were processed

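Each library gave 1 FPKM value per RefSeq transcript, the authors' deposited unit per the file headers. The submitters' processing notes name HISAT2 2.1.0, StringTie 1.3.4d and the build hg38. TruSeq libraries from 1 ug of RNA were read as 50 bp single ends, per the labels' protocols. Annotation release, filters and strand setting are not given in the sources used here. Sequencing depth is unknown. FPKM sums were 199985 to 220259.

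The row with the highest mean was kept per name, and names with at least 1 FPKM in 3 libraries were tested (8531). Since the files hold FPKM and not counts, log2(FPKM + 1) was fitted with limma 3.58.1 in R 4.3.3 (trend), with 1 mean for each of the 10 groups over 30 libraries. P-values were adjusted by Benjamini-Hochberg over all 8531 genes in each comparison, and genes with an adjusted p below 0.05 were called. Fold changes of low genes are understated on this scale. "Rose" and "fell" refer to called genes.

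The ribosomal members, the gene lists and the tests were chosen with earlier results of these data known. Genes named were the 4 called members with the largest rise and fall against each control, the 3 largest between exposures or times, the paralogs with their parents, RPS27A, and the 2 genes with the smallest p of other lists. Others named beyond that rule, such as RPL9 and RPL30, were chosen after their values were seen. Some genes that the rule names are not reported here, though counts over lists include them. Alternatives were a replicate block, median-of-ratios scaling, a pseudocount of 0.1, no filter, and leaving out each well. On simulated data of the same form the fit was tested and recovered known changes.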

Additional observations from a re-analysis of the deposited data

Results flagged for a closer look

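Some effects of an exposure differed between 24 h and 2 h by a test of the difference itself, given here as the effect at 24 h minus that at 2 h on the log2 scale. RPS27L differed by -0.59 for tobacco shisha on the electric heater, by -0.39 for tobacco shisha on charcoal and by -0.44 for herbal shisha on charcoal. These 3 differences were kept in all 12 fits that left out 1 well. For the electric heater, RPL22L1 differed by -0.47, RPL36 by -0.35, RPL7A by -0.24, RPS20 by -0.21 and RPL15 by 0.86. The RPL36 difference was lost without well 3 of the electric heater at 2 h (adjusted p = 0.0512).

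For charcoal alone, RPL26 differed by 1.09 and RPL22 by 0.33. The first was lost without well 2 of charcoal alone at 2 h (adjusted p = 0.0886), and the RPL22 difference in 4 of 12 such fits, those without control well 2 or charcoal well 1 or 2 at 2 h or control well 3 at 24 h (0.0556 to 0.0763). RPL26 differed by 0.90 for tobacco shisha on charcoal and RPS27A by -0.39 for herbal shisha, and these were lost in 9 and 10 of 12 fits (RPL26 0.0558 to 0.139, RPS27A 0.0501 to 0.141). RPL26 kept its call only without well 1 of tobacco shisha at 2 h or well 1 of either 24 h group, and RPS27A only without well 3 of either 24 h group. With median-of-ratios scaling 0 members had a higher effect at 24 h for charcoal alone or for tobacco shisha on charcoal. The differences of RPL26 and RPL22 thus lost their calls there.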

How the results depend on the processing

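Median-of-ratios scaling changed the number of members called at 2 h to 2 (charcoal alone), 13 (herbal shisha), 13 (tobacco shisha on charcoal) and 18 (electric heater). At 24 h it gave 6 for charcoal alone and 1 for tobacco against herbal shisha. In the tests between times it gave 1 (charcoal alone), 8 (herbal shisha) and 8 (tobacco shisha on charcoal). With no filter the count was 2 for charcoal alone and 2 for herbal shisha at 2 h, 1 for charcoal alone at 24 h, and 1 each for herbal shisha and tobacco shisha on charcoal between times, with more genes in the adjustment. The cause of the other shifts was not tested. The pseudocount of 0.1 kept all 52 calls of named genes, scaling 44, the replicate block 49 and no filter 39, none with a change of sign.

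Leaving out 1 well gave, at 2 h, 2 to 3 calls (charcoal alone), 2 to 4 (herbal shisha), 3 to 12 (tobacco shisha on charcoal) and 3 to 12 (electric heater). At 24 h it gave 1 to 4 (charcoal alone), 2 to 4 (herbal shisha), 3 to 4 (tobacco shisha on charcoal) and 9 to 12 (electric heater). Tobacco against herbal shisha gave 0 to 1 at both times, and the electric heater against charcoal 0 to 7 at 2 h and 3 to 6 at 24 h. The tests between times gave 0 to 2 (charcoal alone), 1 to 3 (herbal shisha), 1 to 5 (tobacco shisha on charcoal) and 4 to 7 (electric heater). Of 42 named calls between groups, 20 were kept in every such fit.

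Wells were not treated as paired, since their labels share only a number and the deviations of same-numbered wells correlated at -0.217 to 0.231 (median 0.0112), with 10 of 135 pairs over 0.1 and 11 of 270 for different numbers. As a hint from the data that numbers share something, 20 of 30 libraries correlated best with their own number. The replicate block gave 3 calls for herbal shisha at 2 h, where 5 were made without it (RPL38 had an adjusted p of 0.0543 by limma), and moved no other count by over 1.5 times. Depth is unknown, so counting error cannot be given. Values for single transcripts of genes with several rows or near-identical copies, such as RPL21, RPL9 and RPS9, are uncertain.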
